A study of Schizosaccharomyces pombe with 8 samples.

Results

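The coding genes within 100 kb of the 2 ends of chromosome III of the fission yeast Schizosaccharomyces pombe were followed in poly-A RNA of wild-type and cwf10-ΔNTE cells. Members were the gene rows of the deposited expression table on chromosome III that end at or before base 100000 or start at or after base 2352884, are shorter than 50000 bases and carry no identifier of a structural or other non-coding RNA. Of 4 identifiers that the rule leaves out, 2 lie in these windows and are not analysed here. The rule used position and annotation but no measured value, and it gave 62 members, 29 at the left end and 33 at the right end, of 7022 gene rows and 5164 coding gene rows. In the reference annotation 61 of the members are protein-coding and 1, SPCP20C8.03, is a pseudogene.

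Both strains were haploid cells of mating type h- with the alleles leu1-32 and ura4-D18. The wild-type strain, OHI246, also carried ade6-M210, and the mutant strain, OHI408, carried ade6-M21X and a cwf10 allele that lacks the codons for residues 2 to 127. Cwf10 is the fission yeast counterpart of Snu114, a GTPase of the spliceosome, the complex that removes introns from precursor RNA, and the deleted residues form its N-terminal extension. Cultures were kept at 25 °C in YE medium. The 2 libraries of a strain came from cultures grown side by side whose RNA was then handled separately, so any p-value here is set by the spread of 2 such samples, which may be technical.

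Chromosome III differs from the other 2 chromosomes of fission yeast in that ribosomal DNA repeats lie at both of its ends, inside the telomeres. Genes next to chromosome ends in this yeast can be held at low levels by heterochromatin, which is built with histone H3 lysine methylation and Swi6 protein, and by proteins bound at the telomere. In the windows studied here the table lists 11 ribosomal RNA rows, 10 of them at 0 reads in all 4 libraries. The members begin 28297 bases from the left end and 16353 bases from the right end. All distances here are to the ends of the reference sequence. Its outermost rows, which start at base 1 and end at base 2452883, are ribosomal RNA rows, so the distance of members from the telomere is not known.

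Reads on gene rows numbered 40857033 and 42802817 in wild type against 36186264 and 42593150 in cwf10-ΔNTE. The 2 libraries of a strain differed by more than sampling noise, and the biological coefficient of variation was 1.49%. The cwf10 row had 142 and 146 counts per 1000000 library reads (CPM) in wild type against 137 and 144 in the mutant, a difference that did not pass the test (adjusted p = 0.216, edgeR). That row extends beyond the deleted codons, so its total does not check the deletion. The reads of a row that overlaps another row cannot be assigned to 1 of them, and 42 of the 62 members overlap another gene row, 22 at the left end and 20 at the right, against 64.9% of all coding rows.

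Most members near the ends of chromosome III were present at different levels in the 2 strains. By edgeR more were higher than lower in cwf10-ΔNTE. Of 60 members tested, 35 rose and 23 fell at an adjusted p under 0.05 (edgeR quasi-likelihood test, adjusted over all 6536 tested gene rows), and rrp45 and mug9 did not pass. Over all tested gene rows 39.6% rose and 38.5% fell, and over the tested coding rows 37.1% rose and 42.5% fell. The share of members that rose, 58.3%, was above both backgrounds. The share that fell, 38.3%, was near that of all gene rows and below that of coding rows. With libraries scaled by their totals alone, 36 members rose and 13 fell. The median log2 change of the members was 0.15, beside 0.01 for all gene rows and −0.02 for all coding rows. Changes of at least 2-fold were seen in 7 members, all higher in the mutant. Of all tested gene rows 3.66% rose that much, and of 5047 tested coding rows 108 did. In 59 of the 60 tested members the libraries of the 2 strains did not overlap in CPM, as in 88.7% of all tested gene rows. The outermost member at each end was not tested: SPCP20C8.01c had 0 and 2 reads in wild type against 1 and 0 in the mutant, and SPCC569.01c had 2 and 4 and then 1 and 3.

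Leaving out the libraries one at a time ended the call of 9 members. SPCP20C8.03 lost it without each of the 4 libraries, SPCC1884.01, bcd1, SPCC70.10 and ppk38 without 2 or 3 of them, and sen54, meu23, rng3 and pcy1 without 1. The other 49 calls held in each of these fits.

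The left end had a gradient. Among members 20 to 40 kb from the end 4 of 4 tested rose, with a median log2 change of 0.44, and among those at 40 to 60 kb 7 of 7 rose, with a median of 0.39. At 60 to 80 kb 4 of 6 rose and 1 fell (median 0.32), while at 80 to 100 kb 2 of 11 rose and 9 fell (median −0.11). Across the 28 tested left members the Spearman correlation of log2 change with distance from the end was −0.78 and Pearson's r was −0.70. Neighbouring rows share reads and members are not independent, and over the 6 tested members whose rows overlap no other row the rho was −0.37. In all, 17 left members rose and 10 fell. With libraries scaled by their totals alone 4 fell, and SPCC613.03, rng3, bcd1, sen54 and qcr2, all 80 to 100 kb from the end, were no longer called.

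The right end had no such order. The single tested member within 20 kb rose by 1.58 on the log2 scale, and at 20 to 40 kb 5 of 6 rose, with a median of 0.62. At 40 to 60 kb 3 of 10 rose and 7 fell (median −0.24), and at 60 to 80 kb 3 of 8 rose and 5 fell (median −0.10). Farthest from the end, at 80 to 100 kb, 6 of 7 rose and none fell in this fit (median 0.20). Across the 32 tested right members the Spearman correlation of log2 change with distance was −0.02. In all, 18 right members rose and 13 fell, and the median changes of the 2 ends were 0.21 and 0.15. The right median turned in sign over rows that overlap no other row, where 5 rose and 6 fell (−0.01), and within 50 kb of the end, where 6 rose and 7 fell (−0.10).

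**Figure D1:**
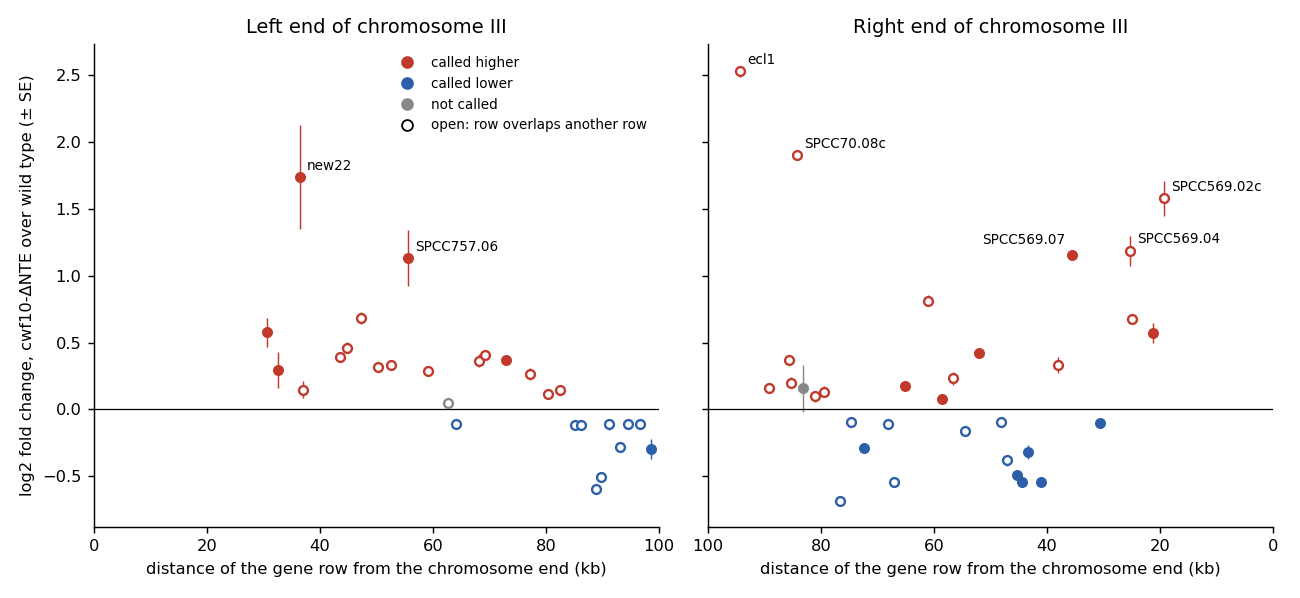
Log2 fold change of cwf10-ΔNTE over wild type (vertical axis, points with ± SE) against the distance of each tested member from the left or right end of chromosome III in kb; red points rose, blue points fell, grey points did not pass the test and open points mark rows that overlap another row. At the left end all 11 tested members within 60 kb lie above 0 and 9 of the 11 at 80 to 100 kb lie below it. At the right end stretches of members above 0 alternate with stretches below it.

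Levels also differed with position, in both strains. In CPM per kb of row, the 5 left members at 20 to 40 kb had medians of 3.51 and 3.36 in wild type against 4.54 and 4.33 in the mutant. At 40 to 60 kb the left medians were 18.2 and 17.9 in wild type against 22.3 and 21.9 in the mutant, and at 80 to 100 kb they were 34.3 and 34.6 against 33.1 and 32.2. The median of all coding rows was 36.5 and 36.3 in wild type, so the left members nearest the end lay below it and those farthest from the end near it. At the right end the wild-type medians were 1.18 and 0.941 at 0 to 20 kb, over 2 members, and 16.9 and 15.8 at 20 to 40 kb. They were 60.3 and 63.3 at 40 to 60 kb, 48.8 and 49.7 at 60 to 80 kb and 20.6 and 21.7 at 80 to 100 kb. The right members nearest the end were thus also low, and those farthest from it were low again. Across the 29 left members the Spearman correlation of the wild-type level with distance was 0.63, and across the 33 right members it was 0.07.

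Raw reads per member had medians of 2119 and 2215 at the left end and 2069 and 2144 at the right end in wild type. In the mutant the medians were 1873 and 2152 at the left and 3330 and 3880 at the right, so in raw reads the 2 ends had like medians in wild type and the right end the higher one in both mutant libraries. In CPM per kb of row the right medians were the higher ones in both strains, at 32.2 and 32.0 against 24.4 and 23.6 in wild type and at 33.5 and 34.9 against 24.9 and 24.7 in the mutant. The range was wide at both ends, from 2 or fewer reads to 65777 at the left and from 1 to 27175 at the right.

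**Figure D2:**
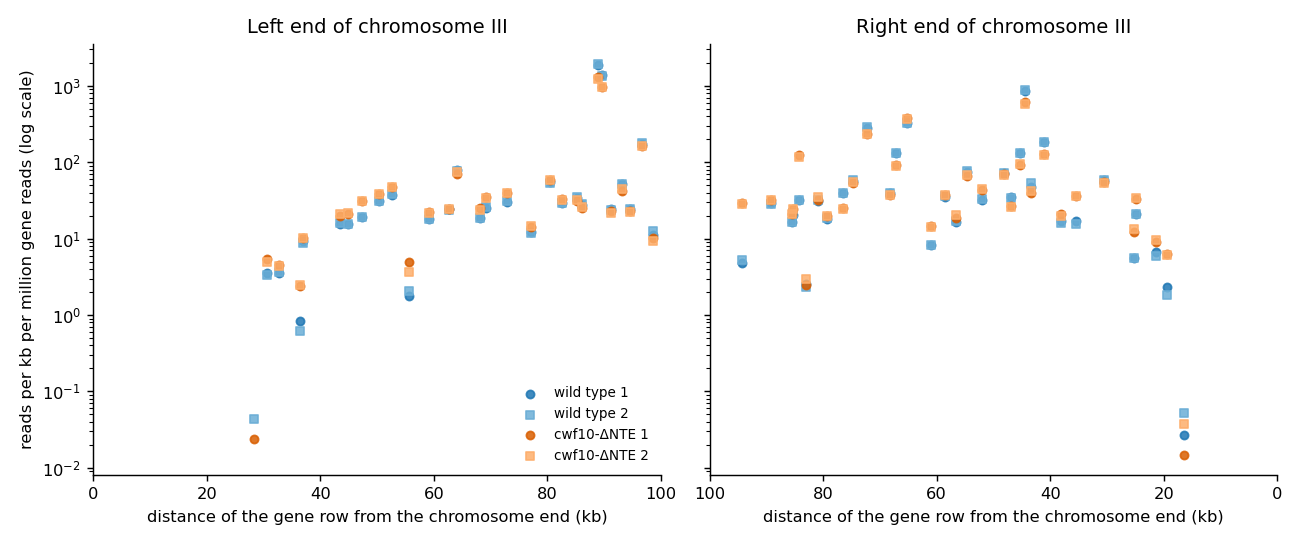
Level of each member in each library, in CPM per kb of row on a log axis, against its distance from the left or right end in kb; blue symbols are the wild-type libraries and orange symbols the cwf10-ΔNTE libraries, and libraries with 0 reads on a member are not drawn. The lowest levels are those of the outermost member of each end, and the ribosomal protein genes rpl35 and rpl902, between 80 and 100 kb from the left end, stand above all other members in all 4 libraries.

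The summed reads of an end depended on a few genes. Left members took 0.437% and 0.435% of gene reads in wild type against 0.379% and 0.373% in the mutant, a ratio of 0.863. The ribosomal protein genes rpl35 and rpl902 held most of these reads, and without them, a step chosen after seeing the data, the left share was 0.155% in both wild-type libraries, against 0.173% and 0.174% in the mutant, a ratio of 1.12. Right members took 0.395% in both wild-type libraries, against 0.403% and 0.398% in the mutant, a ratio of 1.01. Without ecl1 and SPCC70.08c, also left out after seeing the data, the right share was 0.391% and 0.39% in wild type against 0.382% and 0.377% in the mutant. The right share minus the left was −0.0418 and −0.0406 percentage points in wild type against 0.0241 and 0.025 in the mutant. The libraries of the 2 strains did not overlap in any of these, and each had p = 0.33 in an exact two-sided permutation test, which cannot go lower with 2 libraries a strain.

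The 3 tested members nearest the left end were SPCP20C8.02c, SPCP20C8.03 and new22. SPCP20C8.02c, which codes for an uncharacterised protein, had 167 and 164 reads in wild type against 235 and 256 in the mutant, a log2 change of 0.58 ± 0.11 (SE). The pseudogene SPCP20C8.03 had 108 and 118 reads and then 130 and 146, a change of 0.30 ± 0.13 whose adjusted p was 0.0462 and which did not hold without any of the 4 libraries. The short gene new22, whose product has no assigned role, had 8 and 6 reads in wild type against 21 and 26 in the mutant. For each of the 3 the mutant values lay above the wild-type values, and new22 changed 3.33-fold from very low levels (log2 change 1.74 ± 0.39, adjusted p = 0.00022).

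Nearest the right end were SPCC569.02c, SPCC569.03 and SPCC569.05c. SPCC569.02c, coding for an uncharacterised protein, rose from 95 and 77 reads to 240 and 271, a log2 change of 1.58 ± 0.13. Its row overlaps the non-coding row SPNCRNA.1298, which had 75 and 69 reads and then 218 and 239, so the same reads may be counted for both. SPCC569.03, also uncharacterised, rose from 426 and 387 reads to 542 and 661 (0.57 ± 0.07). SPCC569.05c codes for a transporter of the spermidine family, membrane proteins of the group that moves polyamines, and rose from 3517 and 3651 reads to 5227 and 6155 (0.67 ± 0.03). SPCC569.04 lies wholly inside the row of SPCC569.05c and rose from 121 and 127 reads to 248 and 314 (1.19 ± 0.11). In these members the mutant libraries stood above the wild-type libraries without overlap.

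Grouped by annotated role, every transporter and most uncharacterised genes among the members rose in the edgeR fit. All 6 members annotated as transporters rose, beside 50.9% of the transporter rows among all coding rows, and 9 of 10 tested uncharacterised members rose, beside 45.2%. The rows of all 6 transporters overlap another row. In the authors' deposited values nic1, SPCC757.11c and SPCC569.05c passed. SPCC757.13, SPCC613.01 and SPCC613.02 did not, with log2 changes there of 0.12, −0.02 and 0.01. Of 18 members whose annotation names an enzyme, by a coarse match to words ending in -ase that also takes in assembly factors and regulators of enzymes, 13 rose and 5 fell, beside 40.3% that rose among all such rows. Of the 26 other members 7 rose and 17 fell, beside 32.0% that rose and 46.4% that fell among all other rows. These shares were not tested against each other.

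Of the 6 transporters 5 lie at the left end. The nickel transporter gene nic1 had 54.1 and 55.6 CPM in wild type against 70.3 and 73.3 in the mutant, a log2 change of 0.39 ± 0.03. SPCC757.11c, a transporter with no named substrate, went from 53 and 54.6 to 72.6 and 70.2 (0.41 ± 0.03), and the dipeptide transporter gene SPCC757.13 from 33.3 and 32.5 to 38.5 and 40.5 (0.27 ± 0.04). Smaller rises by edgeR, of 0.12 and 0.15, were found in the adjacent transporter genes SPCC613.01 and SPCC613.02, which did not pass in the authors' values. Each rise was larger than the spread between libraries. The row of nic1 shares bases with that of SPCC757.02c on the opposite strand, which rose by 0.46 ± 0.04.

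The hexose transporter family of this yeast, ght1 to ght8, has no member in these windows. Of its 8 genes elsewhere 5 rose and 1 fell, with a median log2 change of 0.14. Among all coding rows annotated as transporters 50.9% rose and 38.2% fell, and the difference was not tested.

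Among enzymes, hsp3101 at the left end and SPCC569.07 at the right end had large rises. The hsp3101 gene codes for a glyoxalase of the DJ-1 family, an enzyme that detoxifies methylglyoxal, and its row had 962 and 1003 reads in wild type against 1454 and 1686 in the mutant (0.68 ± 0.05); it overlaps 2 non-coding rows that also rose. SPCC569.07, annotated as an aromatic aminotransferase, overlaps no other row and rose 2.22-fold, from 1683 and 1611 reads to 3330 and 3960 (log2 change 1.15 ± 0.04, adjusted p = 7.82e-21). The amylase-family gene aah1, whose product is a GPI-anchored cell surface glycosyl hydrolase, rose by 0.37 ± 0.03. The sterol acyltransferase gene are2, needed to store sterols as esters, rose by 0.42 ± 0.03. Both of these rows also overlap no other row, and the libraries of the strains did not overlap.

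The largest changes of all members were those of ecl1 and SPCC70.08c, which lie 94313 and 84247 bases from the right end. The ecl1 gene codes for a small protein named for extending chronological lifespan, and its row had 688 and 780 reads in wild type against 3907 and 4500 in the mutant. This is a change of 5.76-fold (log2 2.52 ± 0.04, adjusted p = 2.09e-27), from 18.0 ± 1.1 to 104 ± 1.6 CPM (SD, n = 2). The deposited row spans 3597 bases, from 2354974 to 2358570 on chromosome III, while the reference annotation gives ecl1 as 820 bases from 2354968 to 2355787, so where in the row the reads fall is not known. SPCC70.08c, annotated as a methyltransferase, rose 3.73-fold, from 1071 and 1096 reads to 3832 and 4213 (log2 change 1.90 ± 0.04). Similar counts stood on the overlapping non-coding row SPNCRNA.1292, with 1250 and 1274 in wild type against 4315 and 4819 in the mutant. Between ecl1 and SPCC70.08c lie nnk1, sac32 and tmp1, which rose by 0.16, 0.37 and 0.20, so the neighbours of the 2 most changed genes had much smaller changes.

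2 further members rose by more than 0.8 on the log2 scale. SPCC757.06, uncharacterised and at very low counts, went from 32 and 39 reads to 82 and 73 (1.13 ± 0.21). The gene spx2, whose product has the SPX and EXS domains found in phosphate-sensing and phosphate-exporting proteins, rose from 1151 and 1195 reads to 1923 and 2175 (0.81 ± 0.04). The row of spx2 overlaps SPNCRNA.1294, which rose by 0.96.

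The 8 members with the lowest log2 changes fell by less than 2-fold. The U3-associated gene utp25, whose product acts in processing of the small-subunit ribosomal RNA, fell from 3656 and 3840 reads to 2179 and 2472 (log2 change −0.68 ± 0.03). The gene rpl35 for a large-subunit ribosomal protein had 1534 and 1588 CPM in wild type against 1067 and 1005 in the mutant (−0.59 ± 0.03), and rpl902 beside it had 1342 and 1313 and then 937 and 931 (−0.51 ± 0.03). The acidic stalk protein gene rpp103, at the other end of the chromosome, had 561 and 578 and then 402 and 383 (−0.54 ± 0.03). The non-coding row SPNCRNA.1103 overlaps both rpl35 and rpl902 and holds 53762 and 54596 wild-type reads, beside 53606 and 54380 on rpl902. Near-identical ribosomal protein gene copies elsewhere could share reads with rpl902 and rpp103, and how such reads were counted is not given in the sources used here.

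At the right end puf6, annotated as a Puf family RNA-binding protein, and nsa2, annotated as a ribosome biogenesis protein, fell. Neither row overlaps any other row. Reads of puf6 numbered 14512 and 15048 in wild type against 9409 and 10776 in the mutant (−0.54 ± 0.02), and those of nsa2 7310 and 7518 and then 4770 and 5737 (−0.49 ± 0.02). SPCC1827.05c, whose product is related to the nucleolar RNA-binding protein NIFK, fell by 0.54 on the log2 scale, and cwf18, which codes for a spliceosome component, fell by 0.38. For all 8 the mutant libraries lay below the wild-type libraries in CPM.

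Per kb of row, rpl35, rpl902 and qcr2 were the most abundant left members and rpp103, hom2 and pcs60 the most abundant right members. The level of rpl35 was 1930 ± 47.3 CPM per kb in wild type, falling to 1280 ± 54.2 in cwf10-ΔNTE (SD, n = 2). The right-end leader rpp103 had 867 ± 18.1 and then 597 ± 20.3. The respiratory chain gene qcr2, for a core protein of the cytochrome bc1 complex, fell by 0.11 ± 0.02, a call that ended when libraries were scaled by their totals alone (−0.03, adjusted p = 0.227). The gene hom2, for aspartate semialdehyde dehydrogenase of the threonine and methionine pathway, rose by 0.18 ± 0.02. The gene pcs60, annotated as an acetyl-CoA ligase, fell by 0.29 ± 0.02.

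**Figure D3:**
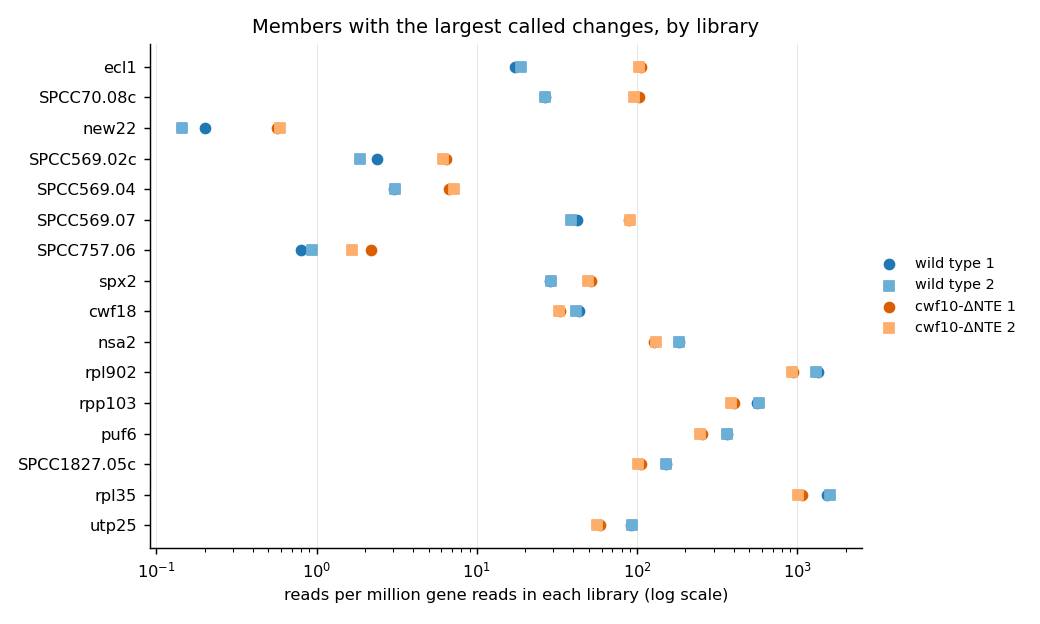
CPM in each of the 4 libraries, on a log axis, for the 8 members with the highest and the 8 with the lowest log2 change; blue symbols are wild type and orange symbols cwf10-ΔNTE. The 2 libraries of a strain lie close together beside the distance between strains, except in new22 and SPCC757.06, whose counts are low.

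Adjacent members tended to move the same way. Of 25 left neighbour pairs in which both genes were called, 23 moved in the same direction (92.0%), and of 29 right pairs 21 did (72.4%). Among all neighbouring coding rows with both called the share was 58.0%. Among pairs whose rows do not overlap it was 78.0% for the members (32 of 41) and 53.8% for all rows. The discordant left pairs were rnc1 (−0.11) beside vph2 (0.37), and SPCC613.02 (0.15) beside SPCC613.03 (−0.12). Among right pairs that moved in opposite directions the largest step was between SPCC569.07 (1.15) and SPCC569.06 (−0.10), which lie 2876 bases apart; the fall of SPCC569.06 was not called with libraries scaled by their totals alone (−0.02, adjusted p = 0.475, edgeR). These shares are a description and were not tested.

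By the authors' deposited table, an adjusted p of 0.05 was passed by 45 members, 22 higher and 23 lower in the mutant, where 18.6% of that table's gene rows with a value were higher and 47.7% lower. All 45 had the same direction and a call in the edgeR fit. That fit called 35 members higher and 23 lower, an excess of rises not seen in the authors' counts. Of the members called by edgeR alone, SPCC613.01, SPCC70.10, pof7 and ppk38 rose by edgeR. Their deposited log2 changes were −0.02, −0.05, −0.01 and −0.06, and the others called by edgeR alone kept their direction.

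Coding rows near the ends of the other chromosomes, chosen by the same distance, were measured less often. On chromosome I 35 of 70 rows were too low to be tested and on chromosome II 31 of 66 were, against 2 of 62 on chromosome III. Of the 35 tested at the ends of chromosome I 14 rose and 16 fell (median log2 change −0.11, quartiles −0.66 and 0.74). Of the 35 tested at the ends of chromosome II 19 rose and 9 fell (median 0.38, quartiles −0.53 and 0.71). The quartiles of the members on chromosome III, −0.11 and 0.39, lay closer together. Falls of at least 2-fold were found in 6 rows on chromosome I and 4 on chromosome II and in none of the members. These differences between chromosomes were not tested.

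Genes for proteins of telomeres and heterochromatin, listed as background to the position of the members, changed by at most 0.39 on the log2 scale. Of 12 such genes 4 rose (33.3%), 6 fell (50.0%) and 2 did not pass, beside 37.1% that rose and 42.5% that fell among all coding rows. The histone H3 lysine 9 methyltransferase gene clr4 rose by 0.39 and the shugoshin gene sgo2, which acts at subtelomeres, by 0.38. The shelterin gene poz1 and the histone H3 lysine 36 methyltransferase gene set2 each fell by 0.23.

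Introns of the members were retained more often in cwf10-ΔNTE. The members have 52 intron rows in 27 genes, of which 48 could be tested, and intron reads relative to reads of the host gene rose in 27 and fell in none (edgeR, adjusted p under 0.05). DESeq2 called 12 of these 27, gave no adjusted p for 2 and did not call the other 13. Over all 5038 introns tested 47.1% rose and 0.298% fell. The median log2 change was 0.92 for member introns and 0.81 for all. The mutant values both exceeded the wild-type values in 36 of the 48 tested member introns and in 71.2% of all introns tested. Of the 27 member genes with introns 21 had at least 1 that rose. The member share that rose was 56.2%, not far from that of all introns.

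The left end had 11 of 15 tested introns called (median 1.22) and the right end 16 of 33 (median 0.80), a difference that was not tested. Without mutant library 2 the counts were 4 and 10, and without mutant library 1 the left count was 6. Median intron reads per 1000 host reads at the left end were 6.98 and 8.66 in wild type against 19.6 and 17.2 in the mutant. At the right end they were 4.34 and 5.02 and then 9.36 and 7.82. Of 8 tested member introns of at least 100 bases 7 were called, and of 24 under 60 bases 8 were, beside 75.2% and 35.2% of all tested introns of these lengths. The difference between lengths was not tested.

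Introns that changed and introns that did not are given here from the reference genome, with the first 6 bases, the last 3 and the last branch-type match in capitals. A branch-type match is CTAAC or CTGAC, or either of these ending in T, on the transcribed strand within the last 40 bases, and it was found in 71.2% of the member introns and 73.5% of all introns. The start GTATGT was found in 11.5% and 19.4%. The protein kinase gene ppk38, on the plus strand, has 3 introns, of which introns 2 and 3 rose and intron 1 did not. They lie at chrIII:2392396-2392440, chrIII:2392572-2392639 and chrIII:2393088-2393141.
ppk38 intron 1: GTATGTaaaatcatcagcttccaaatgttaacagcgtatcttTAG
ppk38 intron 2: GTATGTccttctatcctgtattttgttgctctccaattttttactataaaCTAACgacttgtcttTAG
ppk38 intron 3: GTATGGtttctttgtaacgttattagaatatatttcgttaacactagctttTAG

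Reads on ppk38 intron 1 numbered 9 and 19 in wild type against 10 and 18 in the mutant, so the strains overlapped. Intron 2 had 2 and 6 reads and then 14 and 18 (log2 change 1.89 ± 0.50, adjusted p = 0.00331), and intron 3 had 3 and 9 and then 19 and 23 (1.71 ± 0.44, adjusted p = 0.00244). Introns 1 and 2 begin with the same 6 bases, and of the 3 only intron 2 has a branch-type match in the window searched. Without mutant library 2 the adjusted p of intron 2 was 0.0715 and that of intron 3 was 0.0697, past the threshold in neither. DESeq2 did not call them either, at an adjusted p of 0.0929 and 0.0727, and intron 3 was also lost without mutant library 1 (0.0525, edgeR).

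The thymidylate kinase gene tmp1, needed to make thymidine triphosphate, is on the minus strand. Its intron 2 (chrIII:2367156-2367208) had the largest retention change of the member introns, and intron 1 (chrIII:2367368-2367426) is shown beside it.
tmp1 intron 1: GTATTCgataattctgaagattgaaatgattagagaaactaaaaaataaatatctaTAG
tmp1 intron 2: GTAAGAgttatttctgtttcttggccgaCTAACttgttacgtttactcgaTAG

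On tmp1 intron 2 there were 3.33 and 3.67 reads per 1000 host reads in wild type against 12.8 and 15.4 in the mutant (log2 change 2.00 ± 0.41, adjusted p = 0.000297). Intron 1 did not pass for retention, with 11.3 and 11.6 and then 15.9 and 12.3. Its exon-exon reads, which span the joined exons, numbered 104 and 104 in wild type against 63 and 68 in the mutant, a fall of spliced reads relative to host reads of −0.86 on the log2 scale (adjusted p = 2.56e-05). Intron 3 showed both changes at once. Its exon-exon reads were 26 and 27 in wild type against 3 and 1 in the mutant (log2 change −3.83, adjusted p = 2.13e-08), while its intron reads were 25 and 27 and then 74 and 78. The rows of tmp1 and sac32 overlap on opposite strands across introns 2 and 3.

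Spliced junctions fell in few member introns. Of 41 tested, exon-exon reads relative to host reads fell in 6 and rose in none, beside 19.8% that fell and 0.658% that rose among 4861 junctions. Besides introns 1 and 3 of tmp1 they were those of vms1 intron 1, sen54 intron 2, dhm1 intron 2 and SPCC613.08 intron 2. In vms1, named for a protein of ribosome and mitochondrial quality control in budding yeast, exon-exon reads went from 72 and 88 to 29 and 25 (−1.45) and intron reads from 12 and 12 to 38 and 43 (1.86). In 5 of the 6 the intron also rose in retention.

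Sen54 is a subunit of the endonuclease that splices transfer RNA, a reaction apart from the spliceosome, and its own messenger has spliceosomal introns. Intron 2, at chrIII:95047-95115 on the plus strand, is shown with intron 2 of dhm1 (chrIII:2408938-2408979, plus strand), a gene for an ankyrin repeat protein.
sen54 intron 2: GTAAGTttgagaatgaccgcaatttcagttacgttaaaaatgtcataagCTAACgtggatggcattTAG
dhm1 intron 2: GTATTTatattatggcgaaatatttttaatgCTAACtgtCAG

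For sen54 intron 2 intron reads numbered 20 and 25 in wild type against 59 and 68 in the mutant, and exon-exon reads 63 and 55 and then 25 and 35. For dhm1 intron 2 intron reads were 14 and 14 and then 29 and 31, and exon-exon reads 169 and 182 and then 86 and 103. In both introns the reads of the intron and of the junction moved in opposite directions, with no overlap between strains. The junction call of sen54 was lost without mutant library 1 or wild-type library 1, at an adjusted p of 0.0552 and 0.114, and by DESeq2. That of SPCC613.08 intron 2 was lost without mutant library 2 or wild-type library 2, at 0.141 and 0.237, and by DESeq2, which did not call dhm1 intron 2 either.

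Intron 2 of sac32, for a nuclear export factor, rose from 1 and 7 reads to 18 and 21 (1.89 ± 0.52), and intron 1 of the transcription factor gene SPCC757.04 from 4 and 1 to 8 and 12 (1.65 ± 0.66). SPCC613.08 intron 1 went from 3 and 2 reads to 7 and 9 (1.90 ± 0.66). These 3 calls rest on few reads and each was lost without 1 or more libraries, with adjusted p up to 0.279 by edgeR. DESeq2 did not call intron 2 of sac32 (adjusted p = 0.0893) and gave no adjusted p for the other two. Intron 2 of sac32 lies inside the row of tmp1 on the opposite strand. Introns 1 and 2 of SPCC613.08 lie inside the non-coding row SPNCRNA.1104. Reads on these introns may therefore come from the overlapping row. The calls of tmp1 introns 2 and 3 and of vms1 intron 1 held without each library.

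**Figure D4:**
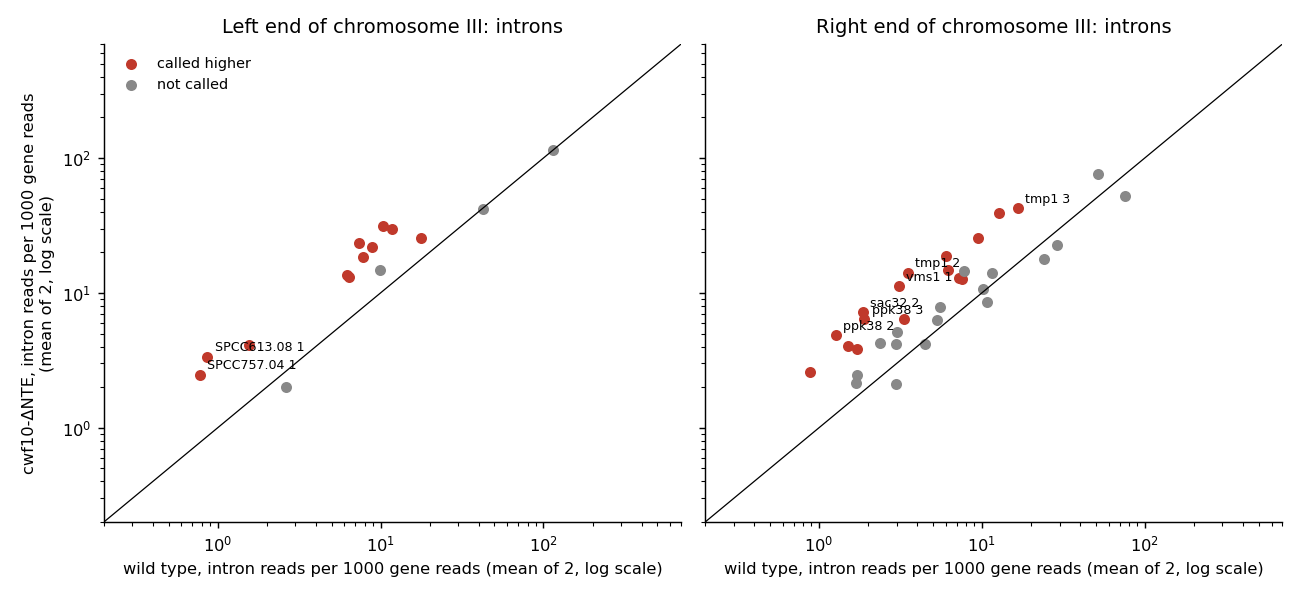
Intron reads per 1000 host gene reads in cwf10-ΔNTE against wild type, each the mean of 2 libraries on log axes, for the tested member introns of the left and right end; the line marks equal values, red points were called higher and grey points were not called, and the 8 introns with the largest change are labelled by gene and intron number. Of the 48 introns, 27 are red and all of them lie above the line.

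Some annotated introns of the members showed no spliced read at all. Among 50 member introns whose host had at least 50 reads in every library, 8 had 0 exon-exon reads in all 4 libraries (16.0%), beside 4.25% of all such introns. They are the 2-base gap in the pseudogene SPCP20C8.03, all 3 introns of SPCC1884.01, 2 of spx2, intron 1 of sac32 and the intron of SPCC569.03. Reads across the border of exon and intron were also few or absent in some. There were 0 in all 4 libraries for spx2 intron 4, and 1, 0, 1 and 0 for SPCC1884.01 intron 1. For these introns a lack of joined reads does not show that splicing was absent. The other introns of the list had border reads in every library. Intron 1 of sac32 and the intron of SPCC569.03 are shown, at chrIII:2365549-2365584 on the plus strand and chrIII:2430777-2430839 on the minus strand.
sac32 intron 1: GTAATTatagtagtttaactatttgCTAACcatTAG
SPCC569.03 intron 1: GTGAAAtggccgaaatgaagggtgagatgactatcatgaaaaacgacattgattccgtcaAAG

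The intron of SPCC569.03 held 70.4 and 80.1 reads per 1000 host reads in wild type against 44.3 and 60.5 in the mutant, far above the member medians of 5.90 and 6.17, and has no branch-type match. Intron 2 of SPCC1884.01 held 108 and 122 and then 106 and 124. Neither passed the retention test. Intron 2 of SPCC1884.01 lies inside the non-coding row SPNCRNA.1096, so its reads may belong to either row. SPNCRNA.1096 had 2196 and 2169 reads in wild type against 1961 and 2236 in the mutant. In contrast, sac32 intron 1 held 2.42 and 2.33 and then 4.40 and 4.12, and did not pass either (adjusted p = 0.18, edgeR). Such values are not scaled by intron length, and this intron spans 36 bases of a 3166-base row. Its low values therefore do not show that it was spliced. No joined read was counted for it, while its border reads numbered 39 and 32 for wild type, then 40 and 58 for cwf10-ΔNTE.

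Introns of genes that rose and of genes that fell were both among those retained. SPCC70.08c, up 3.73-fold, had 32.7 and 25.5 intron reads per 1000 host reads in wild type against 23.2 and 22.1 in the mutant, a log2 change of −0.36 that did not pass, and its exon-exon reads went from 7 and 12 to 55 and 59. The ribosomal protein genes rpl35 and rpp103 fell, and their introns rose relative to host reads by 0.53 ± 0.06 and 0.72 ± 0.11. In rpl35 intron reads went from 17.7 and 17.9 per 1000 host reads to 24.6 and 26.7, while the intron reads themselves numbered 1085 and 1180 and then 977 and 1175. With library size in place of host reads as the offset, the change of the rpl35 intron turned to −0.07 (adjusted p = 0.369, edgeR) and that of the rpp103 intron was 0.18 (adjusted p = 0.174), neither past the threshold, and the intron of SPCC70.08c rose by 1.53 (adjusted p = 1.6e-07). The intron of hom2, a gene that rose, went from 1.6 and 1.4 per 1000 to 3.76 and 4.38.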

How the data were processed

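Poly-A RNA libraries, 2 per strain, were compared from a single deposited table. The authors deposited raw counts for each gene row and intron, log2 values of expression and splicing efficiency, and a log2 fold change with its adjusted p-value, per the file headers. The submitters' processing notes list Bowtie 0.12.7 and CASAVA 1.8.2 with no role, and the genome build is not given in the sources used here. Chromosome III of the file has the length of the reference assembly ASM294v3, 2452883 bases, and 98.8% of 5358 nuclear introns begin GT or GC and end AG there, so sequences were read from it (RefSeq). The deposited log2 splicing efficiency gave exon-exon counts that were whole within 0.001 for all 5361 introns.

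Counts of all gene rows were tested with edgeR 4.0.16 in R 4.3.3 (quasi-likelihood, TMM, filterByExpr, Benjamini-Hochberg over all tested rows, threshold 0.05). Introns and junctions used the log of host reads plus 1 as offset, at least 10 summed reads and hosts of at least 50 reads in every library. CPM are TMM-scaled. Standard errors are of the log2 change. The tests were also run on simulated data built from these counts. DESeq2 1.42.0 was an alternative. Counting error is small at these depths except in rows and introns with few reads. Values named are the 3 tested members nearest each end, the 8 highest and 8 lowest changes without overlap of libraries, the 3 most abundant per kb of each end and the 8 introns with the largest change, and other members by role. The members and lists were chosen with earlier results of these data known. Second reads of the pairs were not used.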

Additional observations from a re-analysis of the deposited data

How the results depend on the processing

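Too few reads kept 2 members and 4 member introns out of the tests. Of the 58 gene calls, none turned in sign under the other test, scalings, filter, leave-outs or block, and the most lost under a single setting was 10, with library totals. DESeq2 kept 30 higher and 21 lower calls. With library totals 4 left members fell and the left and right medians were 0.29 and 0.23, and without a filter on low counts the left median was 0.15. Over rows that overlap no other row, 5 left members rose and 1 fell (median 0.47), and 5 right members rose and 6 fell (−0.01). Within 50 kb, 7 left members rose and 0 fell (0.46), and 6 right members rose and 7 fell (−0.10). The right median without each library lay between 0.10 and 0.15.

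For introns, DESeq2 called 3 at the left end and 9 at the right, with 2 adjusted p-values not given, and the right median was 1.07 with at least 40 summed reads and 1.10 with library size as offset. Without single libraries, 4 to 9 left and 10 to 15 right introns rose, and the medians were 1.07 to 1.28 at the left and 0.73 to 0.87 at the right. DESeq2 called 0 left junctions lower, and 1 to 2 were without single libraries, with right junction medians of −0.14 to −0.12.

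The left share of reads rose by 0.00317 percentage points over rows without overlap and by 0.0186 without rpl35 and rpl902, and the right share changed by −0.018 over rows without overlap and by −0.0108 without ecl1 and SPCC70.08c, the 2 steps that drop genes being chosen after seeing the data. The causes were not tested. Spearman rho of level with distance was 0.54 at the left in the mutant, and at the right 0.09 in the mutant, 0.33 over rows without overlap and 0.12 with raw reads.

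Same-numbered libraries did not deviate together (correlation −0.0346 over 5913 genes), so the numbers only name libraries. With the replicate number as a block 35 members rose and 23 fell, 27 introns rose and 7 junctions fell.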

Other observations

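Non-coding rows lie among the members. The windows hold 43 rows of non-coding RNA, the 11 ribosomal RNA rows included, of which 26 were tested, 16 rose and 3 fell (median log2 change 0.30). Those that rose were 61.5% and those that fell 11.5%, beside 48.0% and 25.2% of all tested non-coding rows (median 0.15) and 39.6% and 38.5% of all tested gene rows, a difference that was not tested. The meiotic transcript meu19, 749 bases from 2419051 to 2419799 on chromosome III, overlaps no other row and had 80 and 87 reads in wild type against 394 and 505 in cwf10-ΔNTE (2.43 ± 0.11, adjusted p = 5e-17 by edgeR). It lies between SPCC569.07, which rose by 1.15, and SPCC569.06, which had a log2 change of −0.10 that was not called with libraries scaled by their totals alone. At the left end meu3 had 22 and 13 reads and then 55 and 65 (1.78 ± 0.26). In both rows the libraries of the strains did not overlap. Their levels were chosen for mention after their values were seen.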
